A study of Mus musculus with 44 samples.

Results

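Keratin-associated proteins are the small matrix proteins of the hair shaft, and their genes carry symbols that begin with Krtap followed by a subfamily number. All genes of the deposited table whose symbol begins in this way were taken, except pseudogenes, which gave 56 members in 27 subfamilies out of 43411 genes. Of these, 55 had a mean above 3 normalized counts and were tested. The remaining one, Krtap13, had 4 reads in all, spread over 4 mice. Within the family the members were taken by name, and none was left out for its level.

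RNA from back skin was sequenced in 44 female wild-type C57Bl/6 mice, which were 8 weeks old when daily subcutaneous injections of 100 µL into the back began. The 10 saline mice received saline. Bleomycin at 1 U/mL, as the labels give it, was given for 2 weeks to 10 mice and for 4 weeks to 10 others, while 6 and 8 mice of the recovery groups had 4 weeks of injections and were then left untreated until 6 and 10 weeks of recovery. The injections are a model of the skin fibrosis of systemic sclerosis. The sources do not give the week at which the saline mice were killed or the hair cycle stage of any biopsy, so time after the first injection, age and treatment cannot be told apart.

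Hair follicles grow, regress and rest in cycles. In a growing follicle, cells that leave the matrix at its base fill with hair keratins, and Krtap genes are then switched on to make the proteins that crosslink the keratin filaments. Proteins of one kind are rich in cysteine, which forms the disulfide bonds of the shaft, and those of another are rich in glycine and tyrosine.

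The coding sequences divided the members by this make-up. In 20 members more than 30% of codons were for cysteine (here called ultra-high cysteine), in 15 others more than 35% were for glycine or tyrosine, and 21 met neither criterion. Just inside the first limit was Krtap10-4, at 30.3% cysteine codons, and just outside it Krtap2-4, at 29.8%. Codons 11 to 50 of 6 members are shown because these members either carry the results below or show each class most plainly, and Krtap3-2 and Krtap6-2 were picked after their values were seen. The sequences are from GENCODE M21 transcripts. Cysteine codons are in capitals in the first 3 and glycine and tyrosine codons in the last 3.
Krtap5-2 codons: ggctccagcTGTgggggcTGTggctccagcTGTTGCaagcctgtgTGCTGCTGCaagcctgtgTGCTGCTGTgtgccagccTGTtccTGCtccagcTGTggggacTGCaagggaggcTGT
Krtap4-1 codons: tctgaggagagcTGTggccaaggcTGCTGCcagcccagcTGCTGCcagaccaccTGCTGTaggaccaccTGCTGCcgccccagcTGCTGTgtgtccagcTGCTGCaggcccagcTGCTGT
Krtap3-2 codons: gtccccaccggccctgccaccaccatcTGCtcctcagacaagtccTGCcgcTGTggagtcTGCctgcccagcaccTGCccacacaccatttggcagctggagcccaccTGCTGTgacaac
Krtap8-1 codons: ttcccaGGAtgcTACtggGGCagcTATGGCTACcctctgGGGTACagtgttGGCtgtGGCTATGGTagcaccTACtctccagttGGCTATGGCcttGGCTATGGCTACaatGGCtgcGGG
Krtap20-2 codons: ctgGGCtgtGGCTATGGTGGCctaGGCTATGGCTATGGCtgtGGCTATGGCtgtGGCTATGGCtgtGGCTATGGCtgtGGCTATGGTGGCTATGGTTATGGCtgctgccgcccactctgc
Krtap6-2 codons: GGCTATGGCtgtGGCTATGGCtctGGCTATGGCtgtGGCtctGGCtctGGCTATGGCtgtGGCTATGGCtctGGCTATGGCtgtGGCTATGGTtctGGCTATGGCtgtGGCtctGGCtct
Of the 40 codons, 15 were for cysteine in Krtap5-2 and in Krtap4-1 and 7 in Krtap3-2, while 22, 27 and 28 were for glycine or tyrosine in Krtap8-1, Krtap20-2 and Krtap6-2.

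The members lay in 5 clusters of GRCm38, with 24 on chromosome 16, 23 on chromosome 11, 5 on chromosome 7, and 2 each on chromosomes 1 and 10. In 53 of the 56 the exons spanned the whole gene, that is, there was no intron. RefSeq promoters (GRCm38.p6) were matched for 51 members by symbol. The letters TATAAA, read on the gene's strand and starting 45 to 18 bases before the transcription start, were found in 32 of the 51 (62.7%) and in 714 of 32851 promoters of all genes (2.2%). In the 250 bases before the start, a motif of LEF1, the transcription factor of Wnt signaling in the hair matrix, was searched on both strands as CTTTG followed by any pair of A and T letters, and was found in 17 of 51 (33.3%) against 14.8% of all. The 100 bases before the start are shown for 5 members whose levels differed most in kind, as described below, with TATAAA in capitals where it was found; Krtap3-2 and Krtap3-3 were chosen after their values were seen.
Krtap8-1 promoter, chr16:89487953-89488052, minus strand: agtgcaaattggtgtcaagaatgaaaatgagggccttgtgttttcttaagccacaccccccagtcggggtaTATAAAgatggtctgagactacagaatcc
Krtap3-2 promoter, chr11:99556854-99556953, minus strand: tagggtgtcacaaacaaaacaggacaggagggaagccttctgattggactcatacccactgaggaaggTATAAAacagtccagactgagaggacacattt
Krtap3-3 promoter, chr11:99550864-99550963, minus strand: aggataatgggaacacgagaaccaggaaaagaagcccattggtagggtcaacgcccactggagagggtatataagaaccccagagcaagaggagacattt
Krtap20-2 promoter, chr16:89205761-89205860, plus strand: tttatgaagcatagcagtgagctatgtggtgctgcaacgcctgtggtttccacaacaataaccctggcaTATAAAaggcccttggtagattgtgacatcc
Krtap5-2 promoter, chr7:142176006-142176105, minus strand: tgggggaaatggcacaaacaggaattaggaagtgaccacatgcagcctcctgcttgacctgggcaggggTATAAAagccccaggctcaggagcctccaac
These genes are Krtap8-1 (ENSMUSG00000059632.3, chr16:89487379-89487952), Krtap3-2 (ENSMUSG00000069721.2, chr11:99555823-99556853), Krtap3-3 (ENSMUSG00000069722.4, chr11:99550130-99550865), Krtap20-2 (ENSMUSG00000091039.1, chr16:89205861-89206394) and Krtap5-2 (ENSMUSG00000054759.6, chr7:142174535-142176005). The letters were present in 4 of these 5, at 29 to 32 bases before the start, and absent from the window in Krtap3-3.

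Reads on genes ranged from 8509094 to 15285577 per mouse. Levels are normalized counts, that is, reads divided by one size factor per mouse, and a fold change is a difference of means of log2(normalized count + 1), given with its standard error. A member was called changed at an adjusted p-value below 0.05 in limma, over 17037 genes, and a fold above 1.5. The median log2 fold change of all genes tested lay within 0.01 of 0 in each comparison. Close copies limit what some members show, since reads of 50 bases can be shared. Among 50-base stretches of the transcript, 81.3% of Krtap4-13, 59.9% of Krtap5-1, 43.8% of Krtap2-4 and 41.3% of Krtap3-3 occur in another gene's transcript. The same holds for 36.6% of Krtap9-1, 28.9% of Krtap3-2 and 28.7% of Krtap5-2. Krtap10-4 lies between Krtap2-4 and Krtap3-3 in this value, and other members share stretches as well. Krtap14 and Krtap15 overlap on opposite strands, and Krtap10-4, Krtap12-1 and Krtap24-1 overlap other genes; how reads were assigned to strands is not given in the sources used here.

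Per kilobase of exon, averaged over all 44 mice, Krtap8-1 and Krtap7-1 were the highest members, at 3966 and 3527 normalized counts per kilobase. Both held the first 2 places in the saline and recovery groups, while Krtap3-2 was first in both bleomycin groups. Krtap22-2, Krtap3-1 and Krtap15 followed over all mice at 1296, 1280 and 1251, in an order that changed with the group: Krtap22-2 stood above Krtap3-1 in saline mice (2740 and 2334) and below it at 10 weeks of recovery (3061 and 3421). Over all mice, Krtap27-1 and Krtap29-1 were the lowest of those tested, at 8.64 and 6.70. Differences between neighbors in this order were smaller than the spread between mice. Summed over the 56 members, the saline mice held 157431, 906, 47532, 17691, 6825, 381, 58094, 18312, 11431 and 73876 normalized counts, in the order of their numbers. Saline mouse 1, in which Krtap genes took 1.39% of all reads, was the highest of its group for 53 of the 56 members, and saline mice 2 and 6 were the lowest in the sum.

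After 2 weeks of bleomycin, all 55 members tested were lower than in saline mice. The summed level had a lowest, median and highest value of 85.3, 150.1 and 729.9 normalized counts in these mice, against 381, 18002 and 157431 in saline mice. Of all genes tested, 7.43% were called lower in this comparison. The median log2 fold change of the members was -6.37, and they ranged from -8.75 to -1.79. Mice of both groups overlapped in the sum, because saline mouse 6 lay below the highest bleomycin mouse, mouse 8. In bulk RNA, fewer hair-forming cells and less RNA per cell cannot be told apart.

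**Figure D1:**
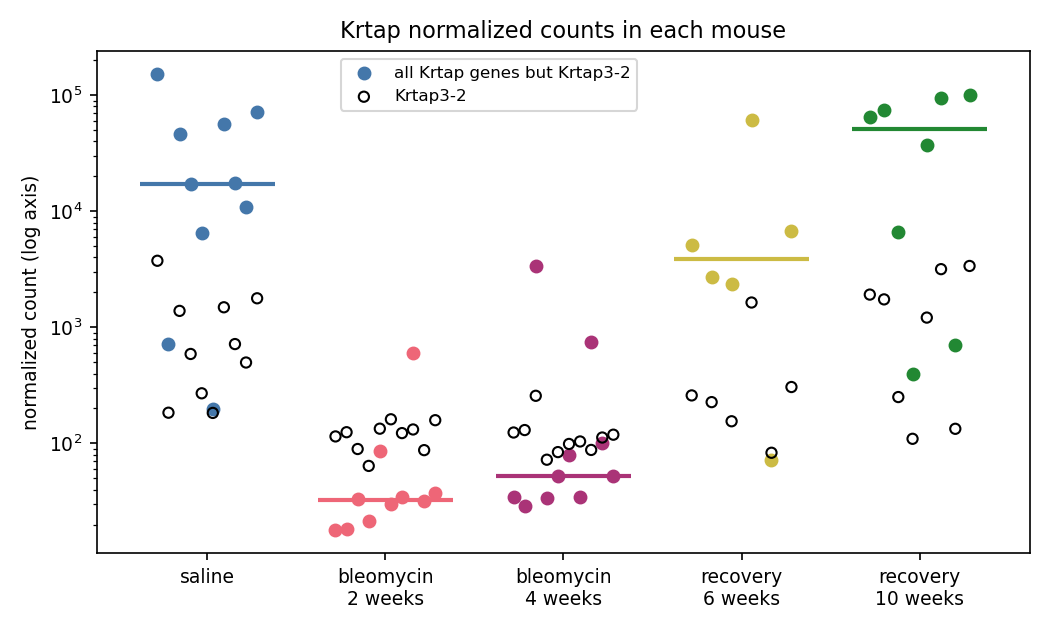
Normalized counts (log axis) in each of the 44 mice, by group: filled points are the sum over all Krtap genes but Krtap3-2, open points are Krtap3-2, and bars are group medians of the filled points. Filled points of 9 of the 10 mice given bleomycin for 2 weeks lie below their open point, while those of all 10 saline mice lie above it.

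The 2 most abundant members had the largest falls on the log2 scale. With 1 added to each count and most levels near 0 after bleomycin, a member's fall was limited by its saline level. Krtap8-1, a glycine- and tyrosine-rich protein of the shaft, had a lowest, median and highest level of 18.2, 1833 and 21540 normalized counts in saline mice and 0, 2.27 and 43.6 after 2 weeks of bleomycin. Its log2 fold change was -8.67 ± 1.18 (SE, n = 10 and 10; limma adjusted p = 1.04e-07). Mouse 8 alone, at 43.6, reached the range of the saline mice, and the next highest mouse stood at 5.74.

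Krtap7-1, of the same kind by its known protein chemistry although its codons did not pass the limit used here, ranged from 23.0 to 15788 normalized counts in saline mice with a median of 1647. After 2 weeks of bleomycin it ranged from 0 to 54.5 with a median of 1.77, and its log2 fold change was -8.75 ± 1.17 (limma adjusted p = 7.07e-08). Again only mouse 8 entered the saline range.

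All 3 codon classes fell, with median log2 fold changes of -6.14 in the 20 ultra-high cysteine members, -6.60 in the 15 glycine- and tyrosine-rich members and -6.28 in the 20 others tested. Among the cysteine-rich members, Krtap4-1 had a median of 662 normalized counts in saline mice (2.42 to 3768) and of 0.958 after 2 weeks of bleomycin (0 to 16.3), a log2 fold change of -7.43 ± 1.03 (limma adjusted p = 1.51e-07). The median log2 fold change was -6.77 in the 8 Krtap4 members and -4.67 in the 5 Krtap5 members. Members near 0 after bleomycin cannot fall further on this scale than their saline level allows, so the values do not rank the 2 subfamilies. Their summed levels had medians of 2873 and 235 normalized counts in saline mice and 4.56 and 0 after 2 weeks of bleomycin. Krtap5 proteins are known from the hair cuticle, the outermost layer of the shaft.

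Among the members of neither class, the log2 fold changes were -8.07 in Krtap15, -7.94 in Krtap1-5, -7.80 in Krtap11-1 and -7.42 in Krtap14. In 5 members the lowest saline mouse lay above every mouse given bleomycin for 2 weeks, where 1.02% of all genes tested were called lower with no overlap. These were Krtap3-2, Krtap9-1, Krtap10-4, Krtap12-1 and Krtap17-1, the first 2 of which are named because of this result. In Krtap9-1, Krtap10-4 and Krtap17-1, saline mouse 6 and bleomycin mouse 8 held the same number of reads, 11, 2 and 5. These 3 members separate only through the size factors, as 1 read was 1.212 and 1.089 normalized counts in those mice. Krtap12-1 had 2 reads in saline mouse 2 and 1 in bleomycin mouse 8. Krtap17-1 had a median of 190.3 normalized counts in saline mice (6.06 to 1505) and of 2.14 in bleomycin mice (0 to 5.45).

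The smallest values belonged to members that were low or that stayed on. Krtap5-3 and Krtap27-1 had no read in any of the 10 mice given bleomycin for 2 weeks, so their fitted values of -4.20 and -2.60 depend on the pseudocount. Taken against a floor of 3 reads over the whole group, the bounds on their log2 fold change were -7.50 and -4.88. Without saline mouse 1, an alternative chosen after seeing the data, they were -6.56 and -4.49. With both at their bounds, the median of the members was -6.41. Krtap20-2 had the smallest change, -1.79 ± 0.72 (limma adjusted p = 0.0473). This call was lost when any one of 22 of the 44 mice was left out, saline mice 1 and 8 among them, with adjusted p-values up to 0.140.

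**Figure D2:**
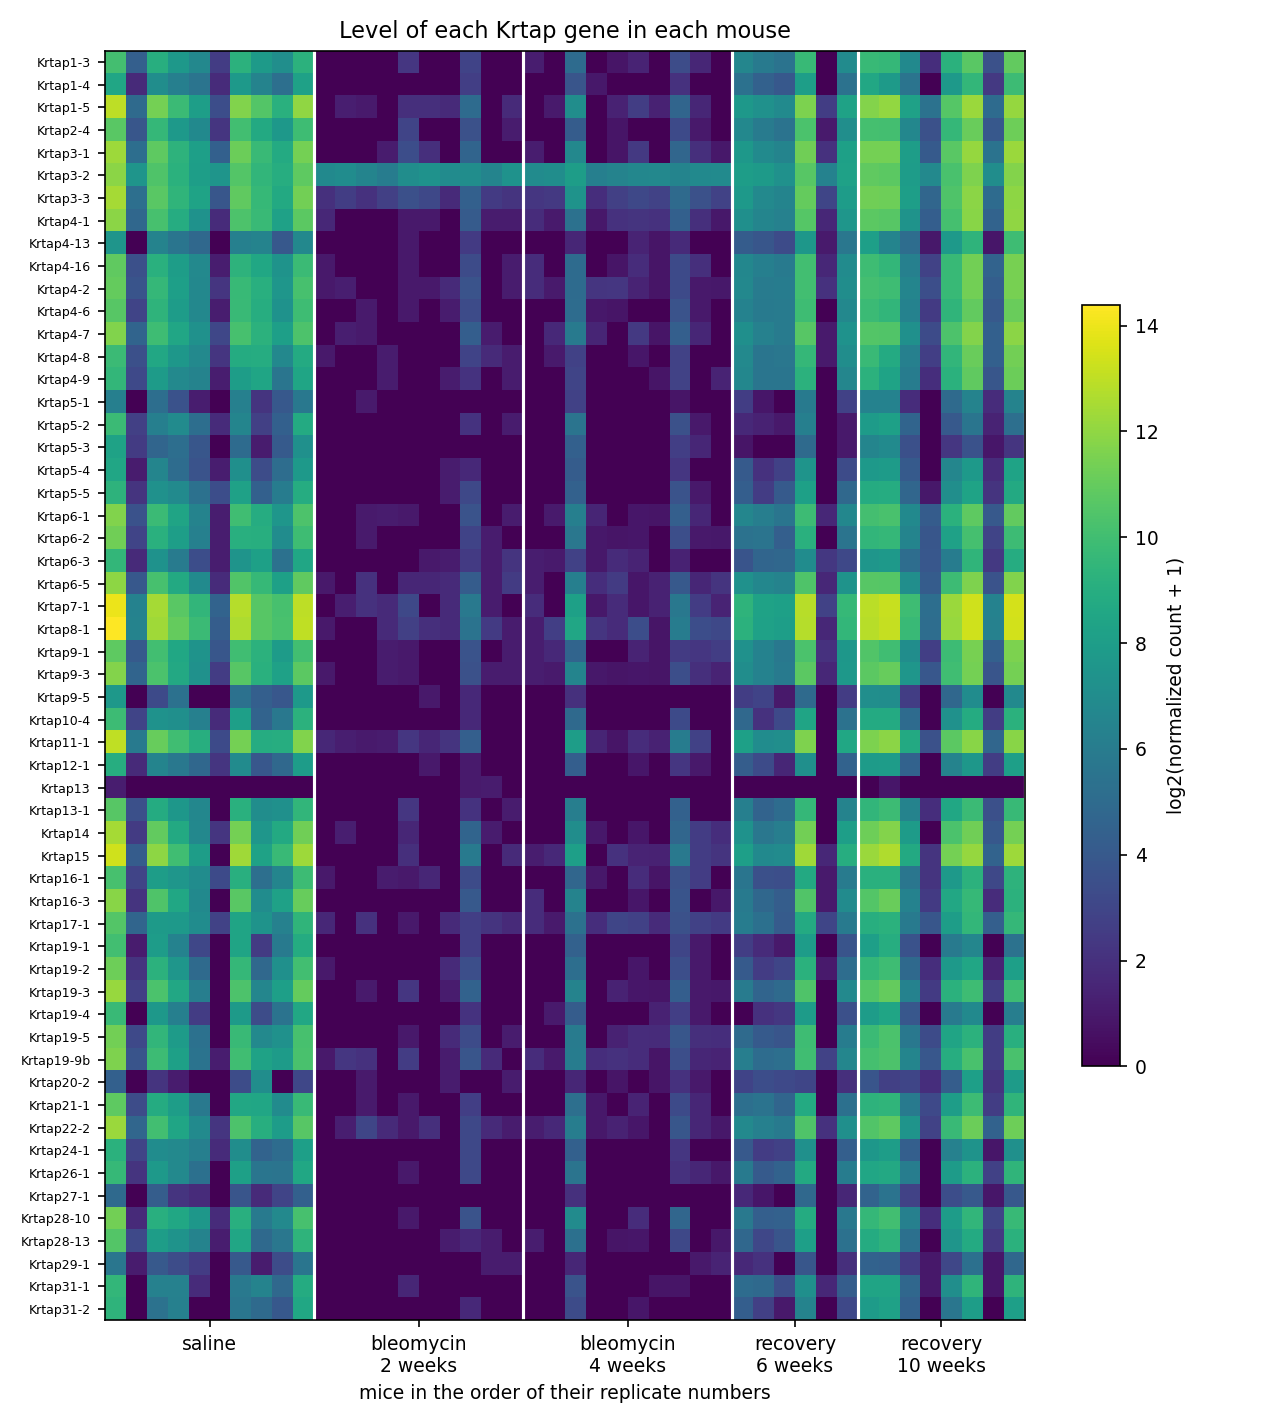
Level of each of the 56 Krtap genes (rows, by subfamily number) in each of the 44 mice (columns, by group), as log2(normalized count + 1) in color. Most rows are dark in the bleomycin mice except for mouse 8 at 2 weeks and mice 3 and 8 at 4 weeks, and Krtap3-2 is the 1 row that stays bright in every mouse.

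Krtap3-2, a cysteine-containing protein of the Krtap3 subfamily, did not go dark. It had at least 64 normalized counts in each of the 44 mice. After 2 weeks of bleomycin its levels in mice 1 to 10 were 115, 125, 89.5, 64.0, 134, 161, 123, 132, 87.5 and 158 normalized counts. In saline mice they were 3747, 184, 1386, 590, 270, 183, 1489, 718, 498 and 1780. The highest bleomycin mouse lay below the lowest saline mouse, and the spread within the bleomycin group was narrow.

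The log2 fold change of Krtap3-2 was -2.59 ± 0.54 at 2 weeks (limma adjusted p = 0.000151). Its neighbors on chromosome 11 behaved differently over the same mice. Krtap3-1 had no read in 6 of the 10 and at most 23.97 normalized counts, and Krtap3-3 ranged from 2.29 to 20.7, with log2 fold changes of -8.02 and -6.37. In 9 of the 10 mice Krtap3-2 made up 60.9% to 87.3% of all Krtap counts, and in mouse 8 it made up 18.1%. Without it, the median summed level of the family after 2 weeks was 32.4 normalized counts against 17348 in saline mice. Because these 3 genes share stretches of sequence, part of the reads of Krtap3-3 could belong to Krtap3-2, which was not tested.

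After 4 weeks of bleomycin, 54 of the 55 members were lower than in the same saline mice, where 7.37% of all genes tested were. The summed level had a lowest, median and highest value of 106, 165 and 3607 normalized counts, and the median log2 fold change of the members was -5.65. The exception was Krtap20-2, at -1.49 ± 0.72 (limma adjusted p = 0.101), which edgeR and DESeq2 on recovered reads called lower. In no member did the groups separate fully, against 1.53% of genes called lower with no overlap. Mouse 3 was the highest of the group for 52 of the 55 members with a read, and mouse 8 for the other 3.

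In Krtap8-1 the 2 high mice stood at 361 and 64.5 normalized counts and the other 8 between 0.787 and 9.69. The log2 fold change of Krtap7-1 was -7.95 ± 1.17 and that of Krtap1-5 was -7.43 ± 1.10, the largest falls at this time. Krtap3-2 stayed at 72.3 to 257 normalized counts, with a log2 fold change of -2.63 ± 0.54.

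Between 2 and 4 weeks of bleomycin, 0 of 55 members changed in limma or edgeR, and DESeq2 called 1, Krtap11-1, higher. At an unadjusted p-value below 0.05 limma gave 0 members, edgeR 0 and DESeq2 17. Of all 17037 genes, 3539, 3732 and 3903 were below it. Limma called 1.49% of all genes tested higher and 0.863% lower, and DESeq2 called 277 genes higher. The median log2 difference of the members was 0.66, with 52 values above 0.

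**Figure D3:**
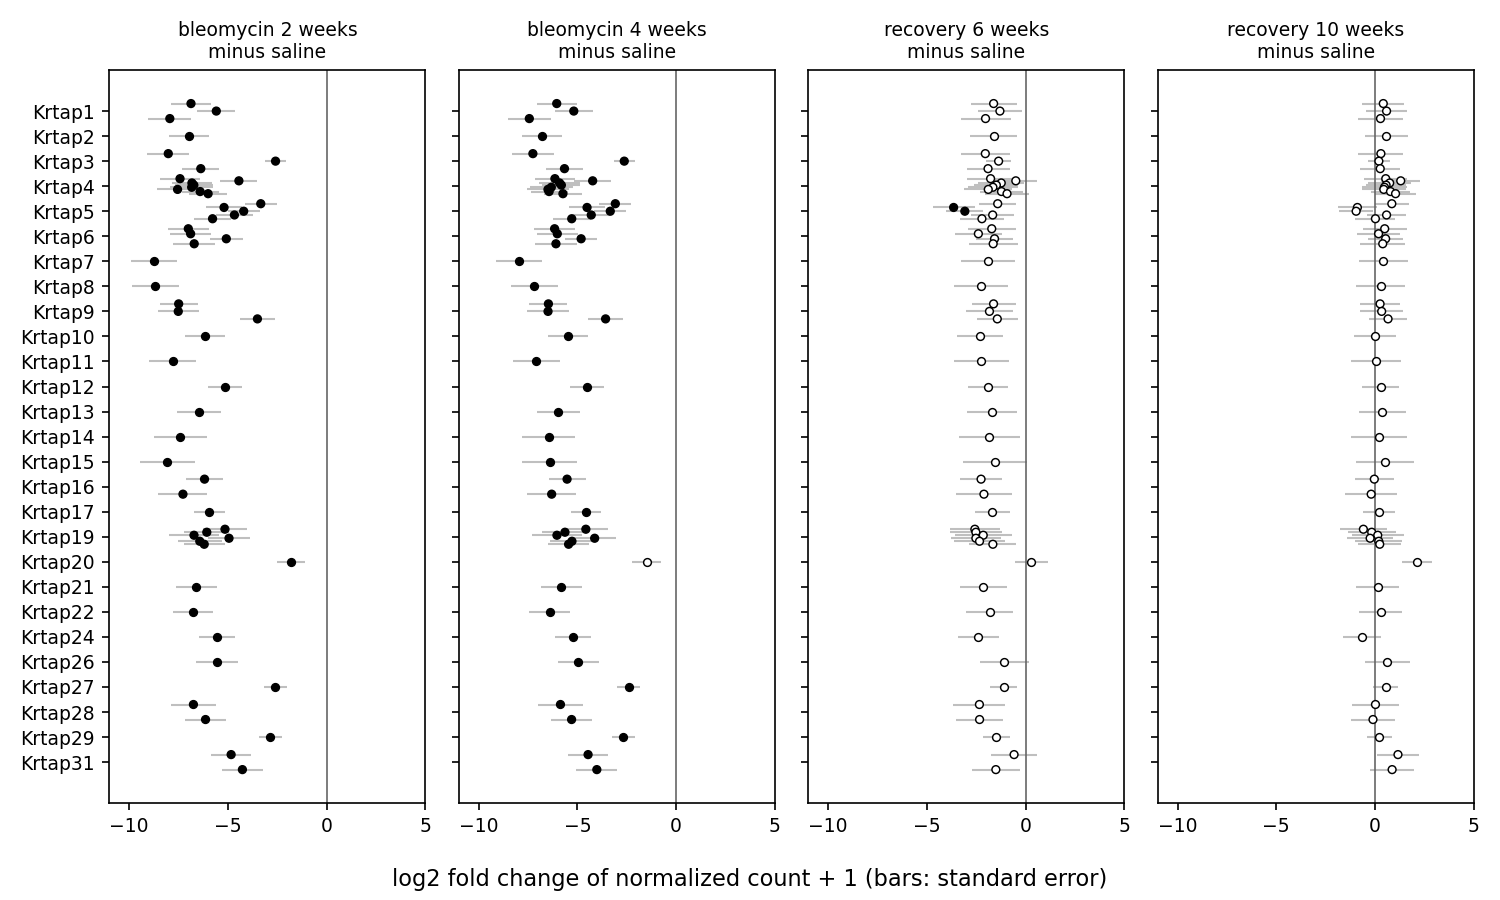
Log2 fold change against saline (horizontal axis, log2 of normalized count + 1; bars are standard errors) of each of the 55 Krtap genes tested, by subfamily, in 4 panels for 2 and 4 weeks of bleomycin and 6 and 10 weeks of recovery. Filled points were called changed; all points of the 2-week panel are filled, 1 point of the 4-week panel is open, and in the recovery panels only Krtap5-2 and Krtap5-3 at 6 weeks are filled.

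After 6 weeks of recovery the mice were spread widely. Their summed levels were 5359, 2953, 2530, 62868, 155 and 7016 normalized counts in mice 1 to 6. Against 4 weeks of bleomycin, 39 of the 55 members were higher, where 4.8% of all genes tested were, with a median log2 difference of 3.79. No member separated the groups, against 2.29% of genes called higher with no overlap. Mouse 5 stayed as low as most bleomycin mice, and bleomycin mouse 3, at 3607, lay above recovery mice 2 and 3. Without mouse 4, the highest of its group for 54 of the 55 members with a read, 24 members were higher.

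Krtap7-1 and Krtap1-5 had the largest rises on the log2 scale. The former stood at 646, 309, 289, 7319, 6.15 and 788 normalized counts in mice 1 to 6, and its log2 difference from 4 weeks of bleomycin was 6.04 ± 1.35 (SE, n = 6 and 10; limma adjusted p = 0.000754). The latter had a median of 178 normalized counts against 1.57 and a log2 difference of 5.41 ± 1.27 (limma adjusted p = 0.00124).

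By subfamily, limma called all 8 Krtap4, all 4 Krtap6 and all 3 Krtap1 members higher. It called 1 of the 5 Krtap5 and 2 of the 6 Krtap19 members. This division depended on the test, since edgeR and DESeq2 on recovered reads each called 50 of the 55 members higher. They called 855 and 891 of all 17037 genes higher. Krtap5-5 lost its call when any one of 8 mice was left out, Krtap19-3 with any one of 13 and Krtap19-9b with 1. The 16 that did not pass the test had log2 differences from 0.26, in Krtap5-3, to 3.11, in Krtap19-2, the latter named for its value.

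Against saline, 2 members were lower after 6 weeks of recovery, and 1.71% of all genes tested were. No member was called with groups that did not overlap, against 0.17% of all genes. Both were cysteine-rich Krtap5 genes of the chromosome 7 cluster. Because 28.7% of the 50-base stretches of Krtap5-2 occur in other transcripts, part of its reads could belong to other genes, which was not tested. Krtap5-2 stood at 2.19, 1.60, 0.988, 74.0, 0 and 0.962 normalized counts in recovery mice 1 to 6, against a lowest, median and highest level of 2.42, 54.2 and 884 in saline mice. Krtap5-3 stood at 0.730, 0, 0, 30.8, 0 and 0.962 against 0, 20.4 and 316. Only mouse 4 was above the saline median in either gene.

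The log2 fold changes were -3.64 ± 1.07 for Krtap5-2 (SE, n = 6 and 10; limma adjusted p = 0.0242) and -3.08 ± 0.94 for Krtap5-3 (limma adjusted p = 0.0317). Both calls depended on single mice, since neither gene was called without saline mouse 1 or without recovery mouse 3, 5 or 6, and Krtap5-3 was also lost without saline mouse 4 or 10 or recovery mouse 1 or 2. Without recovery mouse 4, Krtap24-1 and Krtap3-2 were called as well, which made 4. DESeq2 and the exact permutation test called 0, and edgeR called 1. They called 451, 163 and 351 of all 17037 genes lower. The other 53 members had log2 fold changes from -2.57 to 0.29, and 54 of the 55 values were below 0.

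After 10 weeks of recovery, 0 of 55 members differed from saline in limma, with 1 below an unadjusted p-value of 0.05. On recovered reads edgeR called 1 higher, Krtap4-13, and DESeq2 called another, Krtap20-2, with 4 and 2 members at an unadjusted p-value below 0.05. Of all 17037 genes, 3247 were below that value in limma, 3369 in edgeR and 3464 in DESeq2. Limma called 2.05% of all genes tested higher and 0.998% lower, while edgeR called 329 genes higher and DESeq2 371. The summed levels in mice 1 to 8 were 67401, 76778, 6880, 507, 38228, 97807, 831 and 103330 normalized counts, so that 5 mice lay above the saline median and mice 4 and 7 lay near the lowest saline mice. The median log2 fold change of the members was 0.28.

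Compared with 6 weeks of recovery, 0 of 55 members changed at 10 weeks in limma, edgeR or DESeq2, although all 55 values were above 0, with a median log2 difference of 2.13. At an unadjusted p-value below 0.05 there were 11 members in limma, 35 in edgeR and 11 in DESeq2. Of all 17037 genes, 2045, 2268 and 2355 were below it. Limma called 0.0176% of all genes tested higher and 0.0704% lower. The 4 comparisons with saline share the 10 saline mice, so their values are not independent of each other.

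Krtap20-2, a glycine- and tyrosine-rich gene of the chromosome 16 cluster, stood high in few mice. Its level was 134 normalized counts in saline mouse 8 and at most 20.3 in the other 9 saline mice, 3 of which had 3.55, 9.02 and 7.51. After 10 weeks of recovery it stood at 13.0, 5.67, 6.97, 2.67, 17.8, 280.0, 3.40 and 237 in mice 1 to 8. Saline mouse 8 and recovery mice 6 and 8 were thus far above all other mice. The 2 recovery mice were also the highest of their group in the summed Krtap level, while saline mouse 8, at 18312, lay near the median of its group. The log2 fold change was 2.11 ± 0.76 (SE, n = 8 and 10; limma adjusted p = 0.0920), and without saline mouse 8 the adjusted p-value was 0.0144.

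The make-up of the family within a mouse was compared over the 21 mice with at least 1000 Krtap reads, of which 8 were saline, 2 had 4 weeks of bleomycin, and 5 and 6 had 6 and 10 weeks of recovery. None of the mice with 2 weeks of bleomycin had so many. Krtap8-1 took 7.76% to 13.7% of Krtap counts and Krtap7-1 6.36% to 13.97%. Krtap3-3 and Krtap3-1 held the steadiest shares, at 3.10% to 4.83% and 2.93% to 4.66%, the former named for this value. The ultra-high cysteine class as a whole took 15.8% to 29.3%, and the glycine- and tyrosine-rich class 23.5% to 36.1%.

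Other members shifted their share by far more than these. Krtap5-2 took 1.25% and 1.31% of Krtap counts in mice 3 and 8 given bleomycin for 4 weeks. In the 8 saline mice it took 0.561%, 0.152%, 0.683%, 0.530%, 0.160%, 0.0313%, 0.180% and 0.600% (mice 1, 3, 4, 5, 7, 8, 9 and 10). At 6 weeks of recovery it took 0.0408%, 0.0543%, 0.0390%, 0.118% and 0.0137% (mice 1, 2, 3, 4 and 6). The recovery mice all lay below the saline mice except saline mouse 8, some on a single read. Reads of genes that share sequence with Krtap5-2 could also enter its share, which was not tested.

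At 10 weeks of recovery the mice divided, with Krtap5-2 at 0.360%, 0.381% and 0.342% in mice 1, 2 and 3 and 0.0393%, 0.0480% and 0.0356% in mice 5, 6 and 8. The share of Krtap20-2 was high in some mice where that of Krtap5-2 was low, but not in all. It took 0.732% in saline mouse 8, where Krtap5-2 was lowest of its group, and at most 0.0155% in the other 7 saline mice. At 10 weeks it took 0.0193%, 0.00739% and 0.101% in mice 1, 2 and 3 and 0.0467%, 0.286% and 0.230% in mice 5, 6 and 8, so that mouse 3 lay above mouse 5.

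Krtap4-13, named for this pattern and with most of its sequence shared with other genes, took 0.563%, 0.677% and 0.942% in recovery mice 5, 6 and 8 and 0.416%, 0.118% and 0.506% in mice 1, 2 and 3. The 2 bleomycin mice had too few Krtap20-2 reads to show whether they followed a simple exchange. Mouse 8 held high shares of both Krtap5-2 and Krtap20-2, the latter at 0.374% on 4 reads. In mouse 3, Krtap20-2 took 0.0542%, on 2 reads. The shares are of the same total, so that a rise in one lowers the others, and no test was made on them.

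**Figure D4:**
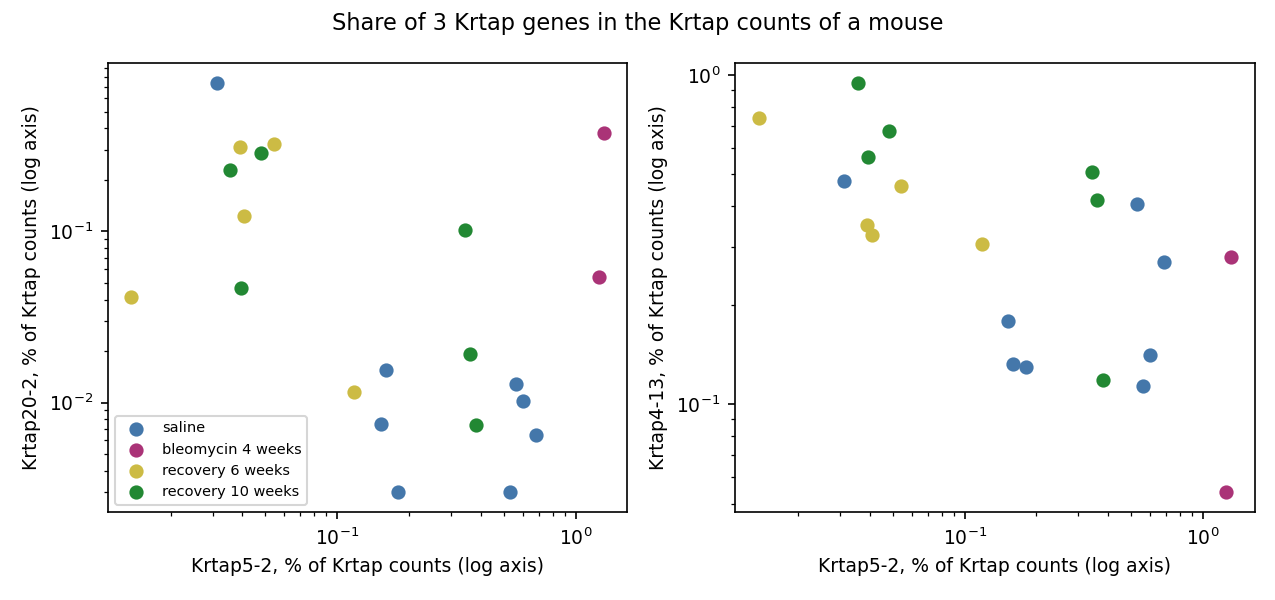
Share of Krtap counts (percent, log axes) taken by Krtap5-2 (horizontal) and by Krtap20-2 (left) or Krtap4-13 (right) in the 21 mice with at least 1000 Krtap reads, in the color of their group; a share of 0 is drawn at 0.003. Saline mouse 8 and the 3 mice of 10 weeks of recovery with the lowest Krtap5-2 share sit to the left of the other mice of their groups.

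Other genes of the hair follicle moved with the family, from lists of the keratins that Krtap proteins bind and of the neighboring layers. All 14 hair shaft keratins tested, of 16 listed, were lower after 2 and 4 weeks of bleomycin, with median log2 fold changes of -7.23 and -6.27. Krt33a, a keratin of the hair cortex, had a lowest, median and highest level of 21.8, 1156 and 9510 normalized counts in saline mice and 0, 2.14 and 47.9 after 2 weeks of bleomycin. All 8 inner root sheath genes tested, of 9 listed, were lower as well, led in level by Krt71, a keratin of that sheath, with a median of 18455 normalized counts in saline mice and 9.21 after 2 weeks of bleomycin. The summed level of the sheath genes was 1885 in mouse 8 of the latter group and 31.8 to 81.3 in the other 9.

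After 6 weeks of recovery, 10 of the 14 shaft keratins and 7 of the 8 sheath genes were higher than at 4 weeks of bleomycin. Neither list had a member called different from saline at 6 or 10 weeks of recovery. By the sums, the ranks of mice by Krtap genes and by shaft keratins were the same in all 6 mice at 6 weeks of recovery and differed by at most 1 in the saline and 10-week recovery groups. They differed by up to 4 and 3 at 2 and 4 weeks of bleomycin. For the inner root sheath, 2 of 10 saline mice and 2 of 6 mice at 6 weeks of recovery had the same rank, and the largest difference was 2 and 1.

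**Figure D5:**
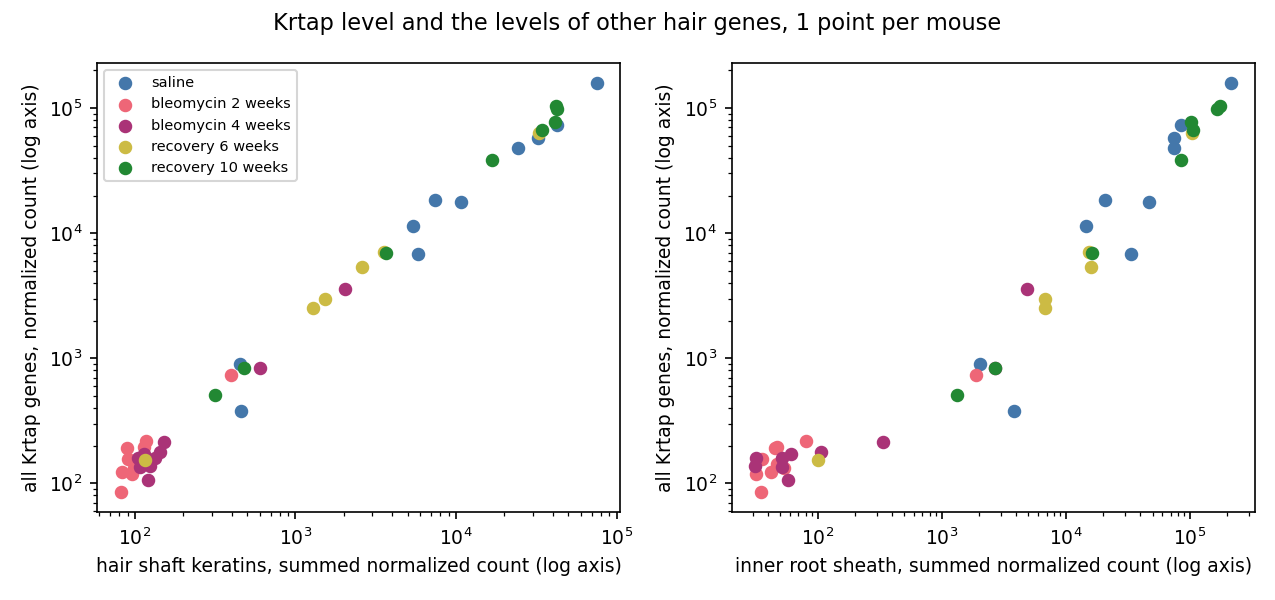
Summed normalized count of all Krtap genes (vertical, log axis) against that of hair shaft keratins (left) and inner root sheath genes (right), 1 point per mouse for 44 mice in the color of their group. Points lie along a line from the bleomycin mice at the lower left to saline and recovery mice at the upper right, with saline mouse 1 highest on both axes.

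By their medians, the list of hair matrix regulators and the lists for other cells moved less. Of all genes tested, 7.43% were called lower at 2 weeks and 7.37% at 4 weeks. Of 13 listed hair matrix regulators, 10 were lower at 2 weeks and 11 at 4 weeks, with medians of -2.04 and -1.95. At 6 weeks of recovery 3 of the 13 were lower than in saline mice, where 1.71% of all genes tested were. The median of the list was then -0.93, and 0 of the 13 were called against saline at 10 weeks of recovery. The genes of this list differed widely. Padi3, listed there although it modifies proteins of the follicle, fell by 6.69 on the log2 scale at 2 weeks, beyond the Krtap median of -6.37. The transcription factor Gata3 had a value of -0.47 ± 0.08, under the fold threshold. Of 10 melanocyte genes, 8 were lower at 2 weeks and 0 at 4 weeks in limma.

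None of 7 epidermal genes was called at 2 weeks and 1 was lower at 4 weeks, and their summed level spanned 130839 to 256509 normalized counts in saline mice, 158601 to 271083 at 2 weeks and 184264 to 245822 at 4 weeks. Of 8 macrophage genes, 5 were higher and 1 lower at both times (sums of 8562 to 23424 in saline mice, 21005 to 39623 at 2 weeks and 19443 to 36360 at 4 weeks). Of 8 fibroblast genes, 4 were lower at 2 weeks and 2 at 4 weeks, and of 8 fat cell genes 4 were lower at each. Of 9 muscle genes, 0 were called at 2 weeks and 1 was higher at 4 weeks. Of all 17037 genes tested, 1585 were called higher and 1266 lower at 2 weeks, and 1797 and 1256 at 4 weeks. The single muscle call at 4 weeks was near that share. No listed gene found in the table was at 0 in all 44 mice, and the part of these cell types in the Krtap levels was not tested.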

How the data were processed

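RNA from mouse back skin (44 biopsies, 1 per mouse) was prepared as stranded mRNA libraries. Per the submitters' processing notes and the methods, the authors aligned reads to mm10 with STAR 2.4.0 and normalized with DESeq2 1.12.3. The deposited signal is a table of normalized counts per gene, with Ensembl identifiers. The counting tool, strand setting and annotation are not given in the sources used here.

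Columns were matched to mice through the labels, and 98.89% of 43411 genes matched a symbol in GENCODE M21. Dividing by the value of 1 read recovered whole reads for 100.0% of values (within 0.01) in every mouse. That value was near 1 in some mice, such as 0.990 in the first mouse given bleomycin for 2 weeks and 0.988 in mouse 3 at 6 weeks of recovery. Intervals and floors cover counting error only, with 3 reads as the floor of detection.

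Differences were tested with limma 3.58.1 (mean-variance trend, R 4.3.3) after taking log2 of the normalized count plus 1, in a single model of the 5 groups that kept genes averaging over 3. Since the unit is a normalized count, edgeR 4.0.16 and DESeq2 1.42.0 were run on the recovered reads as alternatives. The scripts were tested on simulated data. Other alternatives were a pseudocount of 0.1, no filter, a stricter filter (6 or more mice reaching 10 normalized counts), a trimmed-mean rescaling, the 2 groups alone, the replicate number as a block, no fold threshold, an exact permutation test per gene, 42 mice (without saline mouse 1 and mouse 2 given bleomycin for 2 weeks) and each mouse left out in turn.

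The members and lists were chosen with earlier results of these data known. Named members are the highest of each subfamily, and the 2 largest called rises and falls of each comparison; of each list the 2 highest genes could be named. Any other gene was chosen after its values were seen. Python 3.11.15, numpy 2.4.6, pandas 2.3.3 and matplotlib 3.10.9 were used. One Krtap pseudogene was left out, and Krtap10-10 was not analysed here. Whether same-numbered mice deviate together was checked and the result is given with the alternatives.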

Additional observations from a re-analysis of the deposited data

Results flagged for a closer look

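In 148 groups of 6 to 10 mice, 1 mouse stood apart from the rest of its group in 26, by the gap to the nearest mouse over the range of the group (Dixon's critical value at 95%, on log2(normalized count + 1)). For normally distributed values chance gives about 1 in 20 groups. The groups are not independent here, because members rise and fall together within a mouse. That rate also does not apply to groups in which few mice had a read. Where only 1 mouse had a read, any read sets it apart. The 26 can therefore not be weighed against that rate. Levels are normalized counts.

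Among mice given bleomycin for 2 weeks, mouse 8 was the highest in most of these cases. Its summed Krtap level was 729.9, and the next highest mouse had 220.0. The members that stood apart in it were Krtap1-5 at 31.6, Krtap4-1 at 16.3, Krtap5-5 at 7.63, Krtap8-1 at 43.6, Krtap9-3 at 10.9, Krtap11-1 at 19.6, Krtap14 at 23.97, Krtap15 at 56.6, Krtap19-3 at 21.8, Krtap21-1 at 5.45, Krtap26-1 at 7.63 and Krtap28-10 at 11.98. In a further 3 members it was the only mouse with a read, namely Krtap10-4 at 2.18, Krtap16-3 at 15.3 and Krtap24-1 at 7.63. In mouse 5 of that group, Krtap31-1 was at 1.91, on 2 reads, and no other mouse had a read.

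After 4 weeks of bleomycin, mouse 3 stood apart in Krtap9-3 at 88.96, Krtap12-1 at 18.6, Krtap24-1 at 20.5, Krtap26-1 at 44.97, Krtap27-1 at 2.93 and Krtap31-1 at 11.7. After 6 weeks of recovery, mouse 4 stood apart in Krtap27-1 at 27.8, Krtap5-2 at 74.0 and Krtap5-3 at 30.8. The latter 2 genes are those called lower than saline at that time, and mouse 4 is the recovery mouse nearest to the saline mice in them.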

How the results depend on the processing

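The falls at 2 and 4 weeks of bleomycin kept their direction and stayed within 1 call of 55 and 54 under every alternative and with any mouse left out (54 to 55 and 54 to 54). After 6 weeks of recovery, 2 members were lower than saline, but 1 with no filter, with 42 mice and in edgeR, and 0 with only the 2 groups, in DESeq2 and in the permutation test. Leaving out 1 mouse gave 0 to 4 (0 without saline mouse 1 or recovery mouse 3, 5 or 6; 1 without saline mouse 4 or 10 or recovery mouse 1 or 2; 4 without recovery mouse 4). At 10 weeks of recovery the 0 became 1 with 42 mice, in edgeR and in DESeq2, and 0 to 1 with a mouse left out (1 without saline mouse 8). Between 2 and 4 weeks of bleomycin the 0 became 1 in DESeq2. The 39 that were higher at 6 weeks of recovery than under 4 weeks of bleomycin became 24 to 44 with a mouse left out, the lowest without recovery mouse 4. They became 34 with no filter, 40 with the stricter filter, and 42 with a pseudocount of 0.1 and in the permutation test. There were 41 with 42 mice, 47 of 52 tested with only the 2 groups, and 50 in edgeR and in DESeq2. The cause was not tested.

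The numbers in the labels do not pair the mice: over 78 same-numbered pairs the median correlation of deviations was -0.0022, against -0.0042 for other pairs, and the lowest was -0.69. With the replicate number as a block, the counts of the 7 comparisons were 55, 54, 2, 0, 0, 37 and 0. Over the 4 comparisons with saline, of 1160 values of named members under 10 alternatives, 1143 kept their direction and their side of the threshold, and the 17 others belong to Krtap20-2, Krtap5-2 and Krtap5-3, with no reversal. Depth limits the lowest members, since 2 had no read in a whole group.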
